A study of Mus musculus with 8 samples.

Results

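Cdc42ep1, Lgals2 and Lgals1 lie close together on mouse chromosome 15, and their starts were covered by 2 of the 30542 anchors used in the Hi-ChIP loop lists of the study. An anchor is a stretch of DNA at which chromatin contacts were counted, and a loop is a pair of anchors on the same chromosome that was listed as joined. The members were all loops with an anchor within 2 kb of an annotated start of one of these 3 genes. There were 160 such loops among the 249200 distinct loops of the 4 lists. The FOXA1 liver mets list held 94 of them among 125623 loops, and the FOXA1 tumor list held 89 among 104136. The HNF4G liver mets list held 56 among 78098 loops, and the HNF4G tumor list held 63 among 76323. The genes were chosen by loop number, since the anchor over Cdc42ep1 and Lgals2 had more loops than any other in the FOXA1 tumor list, so these numbers are a description with no test.

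Hi-ChIP reads out contacts between distant DNA fragments at which a chosen protein, here the transcription factor FOXA1 or HNF4G, was cross-linked. Each factor was studied in a cell line from a primary pancreatic tumor of a KPC mouse, named tumor, and in a matched line from a liver metastasis, named liver mets. KPC mice are engineered to form pancreatic tumors through a Cre recombinase with a pancreatic promoter, so both lines share the alleles of that model. All 8 samples were labelled WT and untreated, with 2 replicates in each of the 4 groups. Each context was 1 cultured line without the stroma and immune cells of a tumor, and whether a line was a single clone is not given in the sources used here. The replicates of a group were joined in 1 list, so there is no spread between replicates, and all intervals (95%, Wilson for shares, exact for ratios of counts) cover counting error only. Where 4 values stand together, FOXA1 comes before HNF4G and, within a factor, liver mets before tumor. Depth is unknown, and the lists hold no expression values by which the labelled cell type could be checked.

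Cdc42ep1 encodes a Borg protein, which binds the active form of the small GTPase Cdc42 and acts on septins and the actin cytoskeleton. Lgals1 and Lgals2 encode galectin-1 and galectin-2, small lectins that bind β-galactosides on glycoproteins. Galectin-1 is known in pancreatic cancer as a product of the stroma that dampens immune cells, and galectin-2 is known mainly from gut epithelium. FOXA1 is known from other tissues as a pioneer factor that opens chromatin for other factors. The study saw no such role in primary tumor contexts and proposes that FOXA1 lacks it in pancreatic cancer. It also proposes that FOXA1 takes part in loops specific to metastasis. HNF4G is a nuclear receptor of the gut and pancreas lineages. The binding sites of both factors often lie in enhancers, which can act on genes at a distance through loops of the kind listed here.

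On GRCm38, Cdc42ep1 runs on the plus strand of chromosome 15 from 78842624 to 78850897. Lgals2 runs on the minus strand from 78850860 to 78855529, so the 3′ ends of these genes overlap. Both genes lie entirely inside 1 anchor, chr15:78841676-78857967, which is 16.3 kb wide and holds their exons, introns and UTRs. This anchor, called the hub here because many loops end on it, ranked 8 by width among all anchors. Loops at Cdc42ep1 and at Lgals2 therefore cannot be told apart. Lgals1 lies on the plus strand from 78926725 to 78930465 inside an anchor of its own, chr15:78925600-78932566, which is 6.97 kb wide. All 3 starts lay inside these anchors, and the nearest other anchors were 5.56 kb from the start of Cdc42ep1, 7.77 kb from that of Lgals1 and 11.9 kb from that of Lgals2, all outside the limit of 2 kb.

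The promoters of the genes that share the hub differed in base composition, and the 250 bases before each RefSeq start are printed below with every CpG in capitals. The RefSeq promoter table (GRCm38.p6) held 2 of the 3 members, and the sequence of Lgals1 is not shown. The Cdc42ep1 stretch is chr15:78842397-78842646 on the plus strand, and the Lgals2 stretch is chr15:78855530-78855779 on the minus strand.
Cdc42ep1: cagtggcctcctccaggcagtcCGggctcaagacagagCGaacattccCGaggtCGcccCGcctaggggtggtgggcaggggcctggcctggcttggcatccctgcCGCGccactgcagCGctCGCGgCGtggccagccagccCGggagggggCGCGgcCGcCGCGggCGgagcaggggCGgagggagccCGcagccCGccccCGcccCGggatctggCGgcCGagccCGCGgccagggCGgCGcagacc
Lgals2: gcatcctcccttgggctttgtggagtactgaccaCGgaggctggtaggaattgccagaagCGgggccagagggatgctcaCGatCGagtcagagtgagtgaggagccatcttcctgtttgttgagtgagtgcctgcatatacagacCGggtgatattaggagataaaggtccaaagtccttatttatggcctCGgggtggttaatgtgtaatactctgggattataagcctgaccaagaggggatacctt
The Cdc42ep1 stretch was 79.2% G and C with 29 CpGs, and the Lgals2 stretch was 50.8% G and C with 6 CpGs. Over 32851 mouse promoters of the same length the medians were 52.4% and 6 CpGs, so Cdc42ep1 had a CpG-rich promoter and Lgals2 was at the median. Neither stretch held any of 3 motifs searched on both strands, namely the forkhead core TGTTTAC bound by FOXA factors, the HNF4 motif CAAAGTCCA and the CTCF core motif, whose letters are the CTCF capitals printed further on with any base at 2 positions. These motifs occur in 3.17%, 0.384% and 0.0517% of all promoters.

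Over the whole anchors the same search found matches in introns of the members. The matches below are printed because they are the sequences of the hub, of Lgals1 and of one of their partners that match the studied HNF4 family or CTCF, a factor known at loop ends. The match is in capitals with 8 bases on each side, read on the strand of the match.
Cdc42ep1 intron, HNF4, chr15:78843598-78843622, minus strand: catcccctCAAAGTCCAgcactttg
Cdc42ep1 intron, CTCF, chr15:78848675-78848704, minus strand: ttacatggCCACGAGGGGGCAGaagttacc
Lgals2 intron, CTCF, chr15:78851972-78852001, minus strand: agaggcagCCACTAGGGGGCAGcaaaggcc
Lgals1 intron, HNF4, chr15:78927044-78927068, plus strand: ctgccttgCAAAGTCCAgtattctg
Gm26634 partner anchor, CTCF, chr15:78869982-78870011, minus strand: cttagtggCCACCAGGGGGCAGaaaacact
The HNF4 match in the hub lay 982 bases after the start of Cdc42ep1, and the match at Lgals1 lay 327 bases after its start. An HNF4 match was present in 4.4% of all anchors and in 20.6% of the 97 anchors of 10 kb or more. The hub held 2 CTCF matches, whereas 0.583% of all anchors and 5.15% of the wide ones held any. No forkhead match lay in the hub or in the Lgals1 anchor, although 36.6% of all anchors and 77.3% of the wide ones held one. A match is a stretch of letters and not a measured binding site.

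For FOXA1 the hub had 70 loops in liver mets and 64 in tumor, and for HNF4G it had 40 and 44. Among all 30542 anchors these numbers ranked 6, 1, 12 and 18, against medians of 6, 5, 4 and 4 loops per anchor. The Lgals1 anchor had 25, 26, 17 and 20 loops in the same order, with ranks of 899, 376, 812 and 592. Both anchors thus stood high in every list, and the hub stood higher than Lgals1 in each.

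Loop number went with anchor width. Across all anchors the Spearman correlation of width with loops was 0.345, 0.314, 0.295 and 0.3, a description over 30542 anchors that share the same libraries. Per kb of anchor, the hub had 4.3, 3.93, 2.46 and 2.7 loops and the Lgals1 anchor had 3.59, 3.73, 2.44 and 2.87. The median anchor had 2.65, 2.17, 1.55 and 1.44 loops per kb. The hub and Lgals1 were therefore alike per kb, and by this measure the hub ranked only between 6438 and 9004 of all anchors. Against the 97 anchors of 10 kb or more, its loop number ranked 3, 1, 8 and 8 and its loops per kb ranked 10, 7, 21 and 23. The part that width plays in the loop number was not tested.

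**Figure D1:**
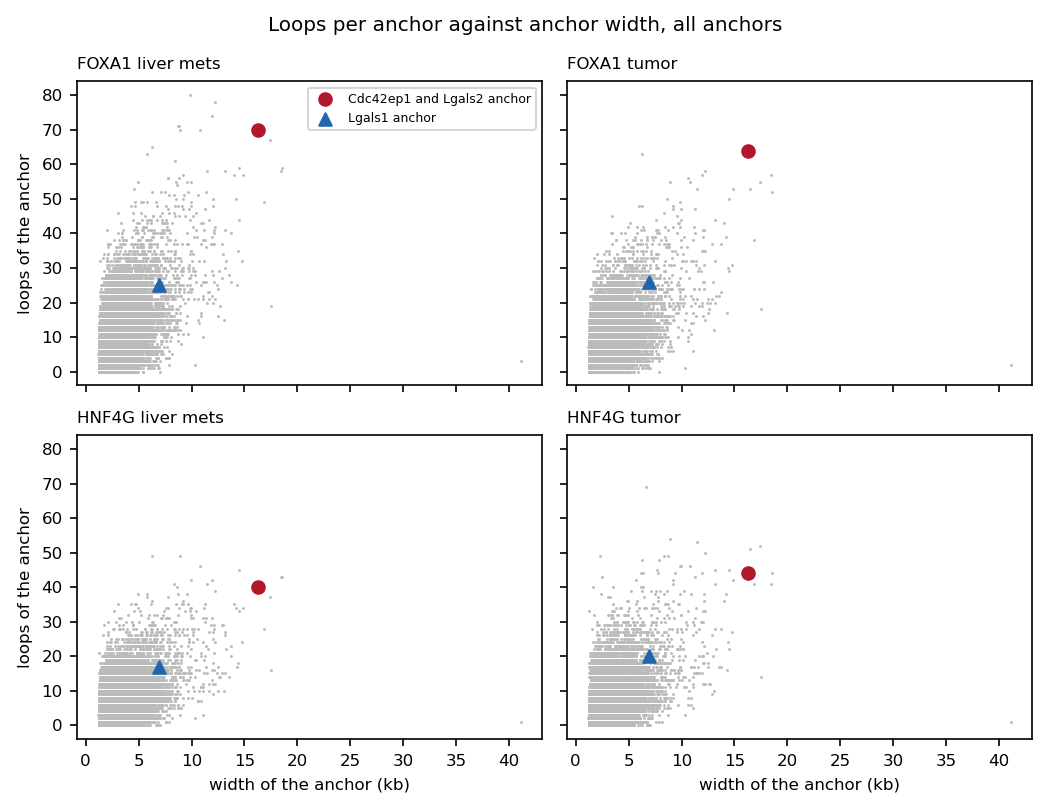
Loops per anchor (vertical axis) against anchor width in kb (horizontal axis), both on linear axes, in the 4 lists, with all anchors as small points and the hub and the Lgals1 anchor marked. The hub lies at 16.3 kb with 70, 64, 40 and 44 loops, above and to the right of most anchors, and Lgals1 lies at 6.97 kb.

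Neighboring anchors were less connected than the hub. Within about 100 kb of it the next highest was the anchor at the start of Card10, a scaffold of NF-κB signaling, with 44, 42, 33 and 38 loops over 9.84 kb. The anchors at the 2 starts of Gga1, a Golgi clathrin adaptor, had 27, 22, 18 and 25 loops and 30, 22, 14 and 13 loops. Sh3bp1 had 15, 16, 12 and 18. Nol12, which encodes a nucleolar RNA-binding protein, had 23, 13, 12 and 11. Every one of these anchors was above the median anchor in all 4 lists.

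The hub was joined to all or nearly all anchors close to it. Joined means listed as a loop, with no minimum set on the value described further on. Of the 15 anchors whose midpoints lay within 100 kb, 7 at lower and 8 at higher coordinates, all 15 were joined to it in each FOXA1 list and 14 in each HNF4G list. The missing loops were those to an anchor in an exon of Card10 in HNF4G liver mets and to the anchor of Pdxp, which encodes the cofilin phosphatase chronophin, in HNF4G tumor. Joining this complete was common among wide anchors. In FOXA1 liver mets, anchors of 10 kb or more were joined to 98.7%, 95.8% and 85.8% of the anchors at 10 to 20, 20 to 50 and 50 to 100 kb, against 66.6%, 52.2% and 38.4% for all anchors. Farther out, from 100 kb to 2 Mb, it was joined to 55, 49, 26 and 30 of 172 anchors. Of all 187 anchors in reach, 112 were joined in at least 1 list and 75 in none. The joined anchors held a gene start in 60.7% of cases and the others in 33.3%, and their median widths were 2.65 kb and 2.09 kb.

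The Lgals1 anchor had 13 anchors within 100 kb and was joined to 12, 8, 10 and 10 of them. From 100 kb to 2 Mb it was joined to 13, 18, 7 and 10 of 167. Its reach was thus shorter than that of the hub. Between 200 and 500 kb the hub was joined to 55.2% and 51.7% of anchors for FOXA1 and to 20.7% and 24.1% for HNF4G. Lgals1 was joined there to 11.1%, 25.9%, 0.0% and 7.41%, and the average anchor to 12.8%, 10.2%, 6.79% and 7.11%. Anchors of 10 kb or more were joined to 43.8%, 35.7%, 24.0% and 27.5%. In this span range the hub was above them for FOXA1. For HNF4G it was slightly below them, with 6 and 7 of 29 anchors joined. This HNF4G order did not hold at all spans. From 100 to 200 kb the hub was joined to 62.5% of 8 anchors in each HNF4G list, against 49.7% and 50.7% for wide anchors. From 500 to 1000 kb its HNF4G shares were 9.8% and 21.6%, against 9.9% and 12.6%. A difference between the factors was not tested.

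**Figure D2:**
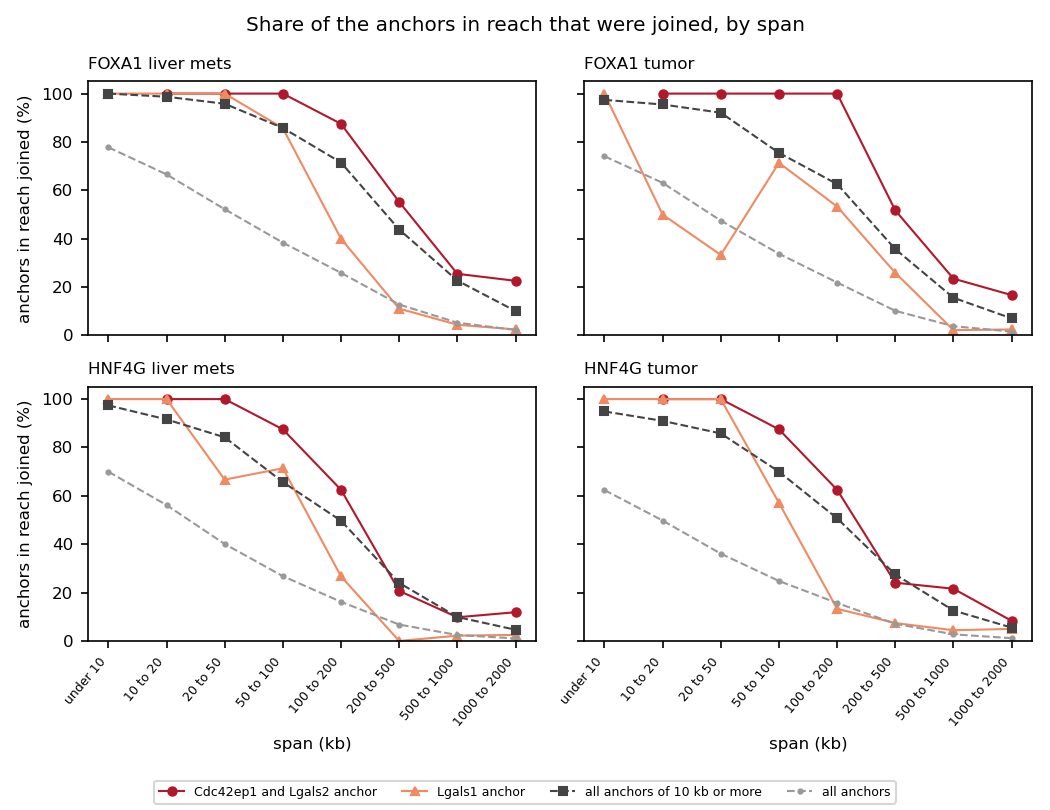
Share of the anchors in reach that were joined (%, vertical axis) by span in kb (horizontal axis) for the hub, the Lgals1 anchor, all anchors of 10 kb or more and all anchors, in the 4 lists. The hub stays at 100% up to 100 kb in both FOXA1 lists, and Lgals1 comes down to the line of all anchors beyond 200 kb in FOXA1 liver mets.

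At the longest spans, from 1000 to 2000 kb, the hub was joined to 22.6%, 16.7%, 11.9% and 8.33% of 84 anchors. Wide anchors were joined there to 10.1%, 7.06%, 4.64% and 5.53%. The median span of the loops of the hub was 423 kb and 375 kb for FOXA1 and 213 kb and 225 kb for HNF4G. For Lgals1 the medians were 100 kb, 142 kb, 79.3 kb and 97.9 kb. Loops of 100 kb or more, called long here, made up 78.6% (67.6 to 86.6), 76.6% (64.9 to 85.3), 65.0% (49.5 to 77.9) and 68.2% (53.4 to 80) of the loops of the hub. Among loops of all promoter anchors, defined as anchors within 2 kb of a transcript start, 63.9%, 60.4%, 55.5% and 59.1% were long. The intervals of the hub lay above this only in the FOXA1 lists, and wide anchors other than the hub had 72.0%, 68.1%, 62.1% and 64.5%. Only 15 anchors lay within 100 kb of the hub, and the hub was chosen for its loop number. With so few near anchors, a large loop number forces a high long share, so this excess is not a separate finding.

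**Figure D3:**
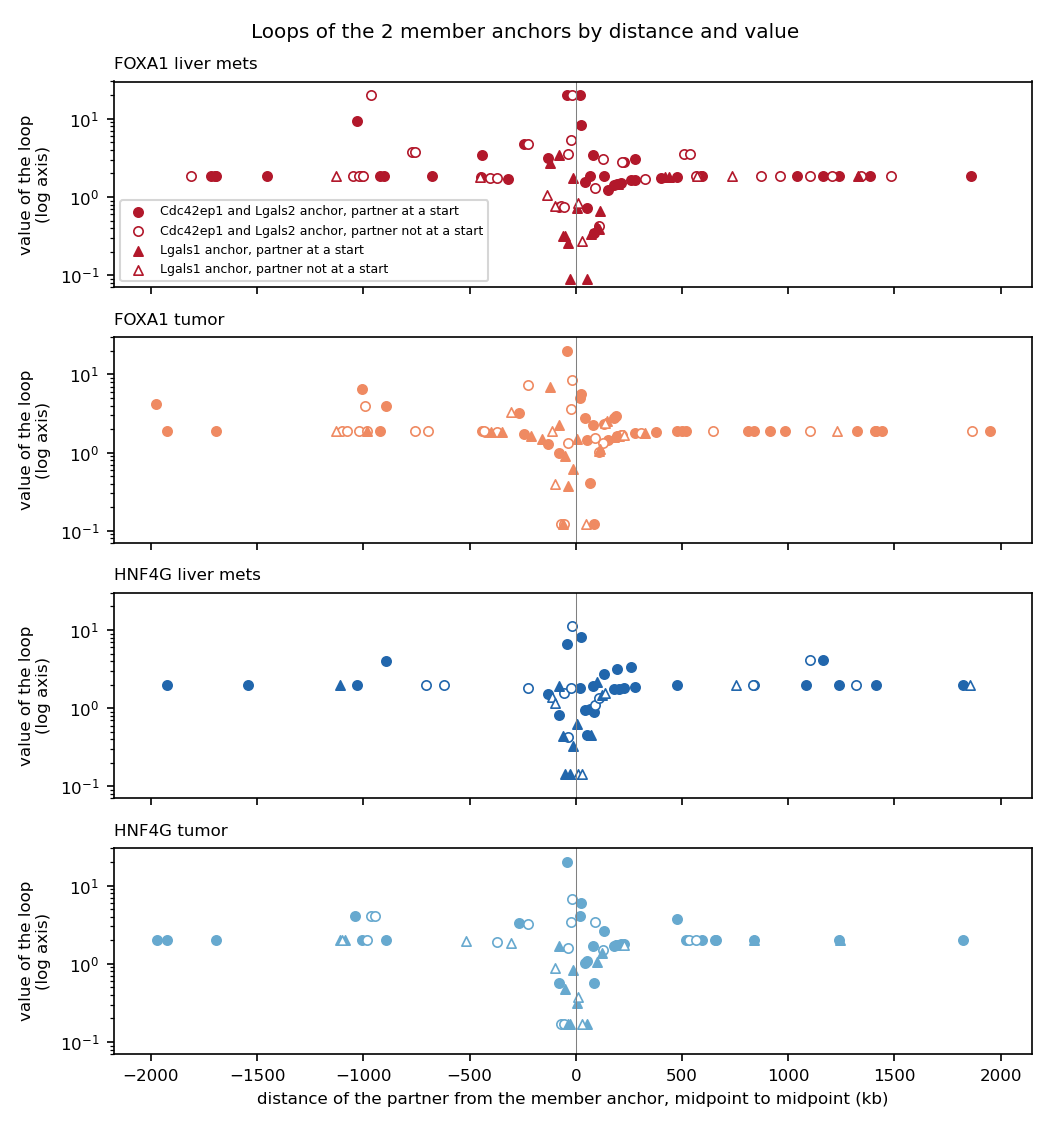
Every loop of the hub and of the Lgals1 anchor, placed by the distance of its partner in kb (horizontal axis, negative toward lower coordinates) and by its value (vertical axis, log scale) in the 4 lists. Circles stand for the hub and triangles for Lgals1, and filled symbols mark partners at a gene start. In FOXA1 liver mets the value 20 occurs within 50 kb of the hub and at a partner at -965 kb.

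Many partners of both anchors lay at gene starts. Of the 94, 89, 56 and 63 loops, 57, 58, 37 and 42 ended at a promoter anchor, which is 60.6% (50.5 to 69.9), 65.2% (54.8 to 74.3), 66.1% (53.0 to 77.1) and 66.7% (54.4 to 77.1). In FOXA1 liver mets the share was 46.8% with the start inside the anchor and 43.6% with the 5′ end of the gene only. Loops of promoter anchors with the same mix of spans as those of the hub ended at another promoter anchor in 54.6%, 55.9%, 57.7% and 59.6% of cases. The share of the hub alone was 58.6% (46.9 to 69.4), 64.1% (51.8 to 74.7), 70% (54.6 to 81.9) and 68.2% (53.4 to 80). These intervals hold the span-matched shares in all 4 lists, so no difference from other promoter anchors was detectable at these loop numbers. The anchors joined to the hub did hold a gene start more often than those in reach that were not joined, as given above.

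Of the 160 distinct loops, 22 were in all 4 lists, 22 in 3, 32 in 2 and 84 in 1. The share in all 4 lists was 13.8% (9.26 to 19.9), against 5.28% of all distinct loops and 3.24% of promoter loops with the same span mix. Counting only values of at least 2 it was 6.98% (2.4 to 18.6), and with anchors widened by 5 kb it was 36.2%. The share over all distinct loops was not computed under either setting, so neither can be set against the 5.28%. The share in 1 list only was 52.5%, against 65.6% of all distinct loops. For the hub, 18 of 112 loops were in all 4 lists, or 16.1% (10.4 to 24.0), against 2.37% at the same span mix over promoter anchors and 11.8% over the other wide anchors. The 11.8% lies inside the interval of the hub. For Lgals1, 5 of 49 loops were in all 4 lists, or 10.2% (4.44 to 21.8), and the span-matched 5.32% lies inside that interval as well.

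Near partners of the hub were shared between the lists more often than far ones. Of the 15 loops of the hub under 100 kb, 13 were in all 4 lists, whereas 14.7% of all distinct loops under 100 kb were. The hub, chosen for its loop number, was joined to at least 14 of these 15 anchors in every list. The high number in all 4 lists follows from that and is not a separate finding. The same share for the other wide anchors is not given here. Of its 35 loops of 1 Mb or more, 25 were in 1 list and 0 in all 4. The share over all distinct loops of 1 Mb or more is not given here. Over all spans, 51.8% of the loops of the hub were in 1 list only. At the same span mix this held for 78.7% of promoter loops and 57.3% of loops of the other wide anchors. The FOXA1 liver mets list alone held 26 of the loops of the hub, FOXA1 tumor alone 20, HNF4G liver mets alone 6 and HNF4G tumor alone 6. The longer FOXA1 lists thus held most of the loops found once.

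Each listed loop carries a number that was read as the −log10 of an adjusted p and ends at 20, and it is called the value here. A listed loop could have a low value, as 3 loops of the hub had 0.123 in FOXA1 tumor and 2 had 0.171 in HNF4G tumor. On this reading, being listed did not require a low adjusted p. Among the loops of the hub, 21, 16, 9 and 13 had a value of 2 or more, which is 30%, 25.0%, 22.5% and 29.5%. In the whole lists 9.33%, 7.84%, 7.21% and 7.32% of loops reached this value. The other wide anchors, at the same span mix, reached it in 27.2%, 23.7%, 20.6% and 21.9% of loops, close to the hub. For Lgals1 the counts were 2, 5, 1 and 0 loops. Values of 4 or more were held by 9, 8, 6 and 7 loops of both anchors, and 4, 1, 0 and 1 reached 20. The whole lists had 2.58%, 1.75%, 1.78% and 1.84% of loops at 4 or more and 0.261%, 0.109%, 0.0973% and 0.145% at 20.

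Apart from 1 far loop described further on, the highest value of each list belonged to a partner within 50 kb of the hub, toward Card10 and Gga1. The loop between the hub and the Card10 start, 43.3 kb away, had the top value of 20 in every list but HNF4G liver mets, where it was 6.65. Among loops of 20 to 50 kb, 0.261%, 0.0932%, 0.268% and 0.0876% had a value as high. The Card10 anchor held a forkhead and an HNF4 match, both outside the gene.

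The next loop joined the hub to an anchor with no gene, chr15:78830378-78837064, which lies 16.1 kb toward lower coordinates on the side of Card10. Its values were 20, 8.6, 11.2 and 6.64, and 0.656%, 0.679%, 0.396% and 0.913% of loops of 10 to 20 kb were as high. Gga1, 26.9 kb on the other side, had 8.23, 5.54, 8.22 and 6.03. Gm26634, an annotated transcript of unknown role at 19.2 kb, had 20, 4.93, 1.82 and 4.13, so its value in HNF4G liver mets was the lowest.

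The loop between the hub and Lgals1 joined both galectin genes over 79.3 kb and was in all 4 lists. Its FOXA1 values were 3.41 in liver mets and 2.24 in tumor, and its HNF4G values were 1.94 in liver mets and 1.67 in tumor. Among loops of 50 to 100 kb, 1.03%, 1.09%, 7.74% and 6.71% were as high. It ranked higher among loops of its span range in the FOXA1 lists than in the HNF4G lists, and no replicate gives an error for this order.

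Other partners of the hub in all 4 lists lay at genes with varied roles. Triobp, which encodes an actin-bundling protein, lay at 134 kb with values of 1.88, 2.32, 2.73 and 2.6. Galr3, a galanin receptor, lay at 194 kb with 1.46, 1.61, 3.19 and 1.73. Pla2g6, a phospholipase A2, was the farthest at 476 kb with 1.81, 1.88, 1.98 and 3.78. An anchor with no gene at -226 kb had 4.7, 7.22, 1.83 and 3.24, and another at -21.2 kb had 5.33, 3.56, 1.82 and 3.46. In both of these the HNF4G liver mets list had the lowest value. The remaining partners in all lists were at Mfng, which encodes a Notch-modifying Fringe enzyme, in an intron of Card10, at the second start of Gga1, at Sh3bp1, at Nol12 and its gene body, at the shared start of the linker histone gene H1f0 and Gcat, and at -34.4 kb. Their values ranged from 0.123 to 3.52.

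**Figure D4:**
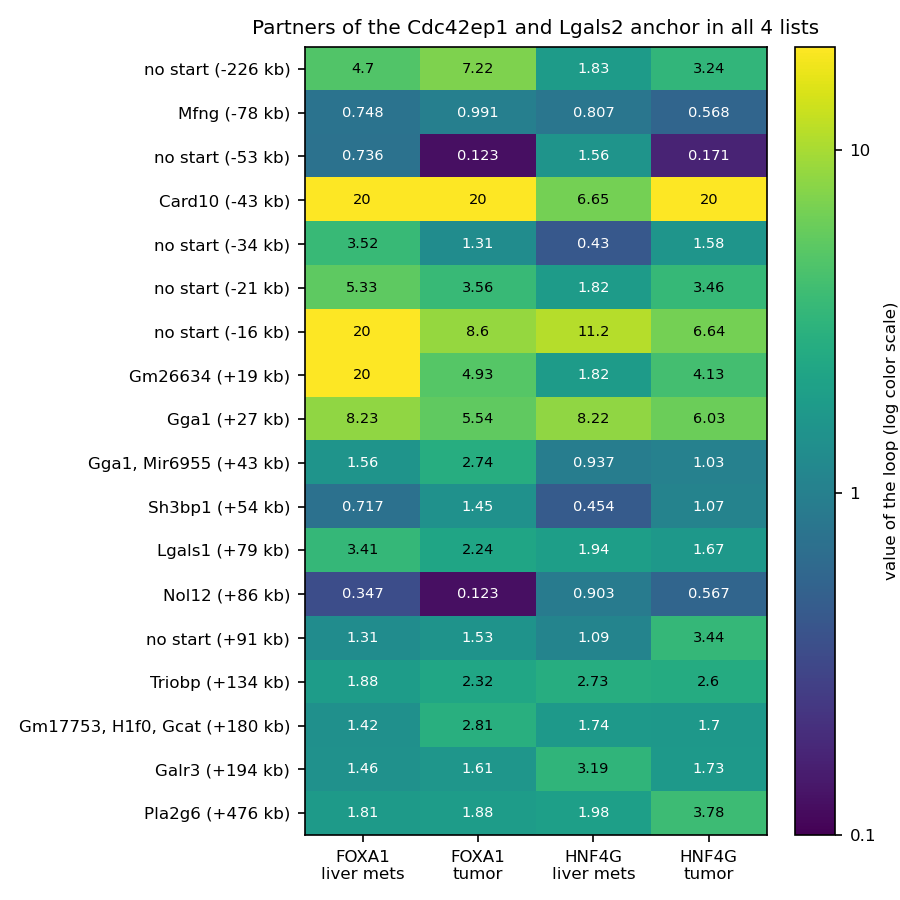
Values (color, log scale, with the number in each cell) of the 18 partners of the hub found in all 4 lists, one per row ordered by position, with the 4 lists as columns. Card10, the anchor at -16 kb and Gga1 stay above 5 in every list, and the Nol12 row lies between 0.123 and 0.903.

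The 18 partners found in all lists held 9 forkhead matches in 7 anchors, or 38.9% of them, against 36.6% of all anchors. They held 2 HNF4 matches in 2 anchors and 1 CTCF match, the one of Gm26634 printed above. The 58 partners found in 1 list only held a forkhead match in 20.7% of anchors and an HNF4 match in 5.17%. The total length searched was 73.17 kb for the first set and 166.8 kb for the other, which is 0.123 and 0.0899 forkhead matches per kb against 0.179 over all anchors. Neither set was thus richer in forkhead matches per kb than the average anchor.

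Most partners of Lgals1 were partners of the hub. Among anchors in reach of both, 18 of its 24 liver mets partners and 18 of its 25 tumor partners for FOXA1 were partners of the hub as well, as were 13 of 16 and 11 of 19 for HNF4G. That is 75.0%, 72.0%, 81.2% and 57.9% of the Lgals1 partners, but 26.1%, 29.5%, 34.2% and 26.8% of the partners of the hub. Of all 179 anchors in reach of both, 38.5%, 34.1%, 21.2% and 22.9% were partners of the hub. Over all lists, 43 of 48 Lgals1 partners were joined to the hub in some list, as were 60.3% of all 179 anchors in reach of both. The anchors lie 79.3 kb apart, so many anchors were close to both, and the part this plays in the overlap was not tested.

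Apart from the hub, Lgals1 had 4 partners in all 4 lists. Pdxp at 12.9 kb had values of 1.75, 0.609, 0.324 and 0.822, and Nol12 at 6.52 kb had 0.729, 1.51, 0.622 and 0.316. The anchor with no gene next to the hub had 0.774, 0.402, 1.16 and 0.874, and Gga1 had 0.318, 0.908, 0.146 and 0.47. All of these were under 2, so the loop with the hub had the highest value of the 5 in each list. The loop from Lgals1 to Card10 over 123 kb was in the FOXA1 lists only, with 2.76 in liver mets and 6.99 in tumor, the highest value of any Lgals1 loop. Its absence from the HNF4G lists has no test, since those lists are shorter.

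Far loops of the hub reached toward Myh9, the heavy chain of non-muscle myosin IIA, about 1 Mb away at lower coordinates. Of the 20 anchors in Myh9 and 100 kb on either side, the hub was joined for FOXA1 to 7 in each context, and for HNF4G to 1 in liver mets and 5 in tumor. Over all anchors at 500 to 1000 kb the hub was joined to 25.5%, 23.5%, 9.8% and 21.6%. At 1000 to 2000 kb it was joined to 22.6%, 16.7%, 11.9% and 8.33%. Whether the Myh9 region differs from this was not tested. The loops to the Myh9 region were 13 distinct loops, 7 of them in 1 list only, as were 51.8% of all loops of the hub. The loop to the Myh9 start at -1007.9 kb had 1.87 for FOXA1 in liver mets, 6.58 for FOXA1 in tumor and 1.99 for HNF4G in tumor, and was not in the HNF4G liver mets list. A loop to a start inside the Myh9 gene at -1029.4 kb had 9.51 in FOXA1 liver mets and 1.99 in HNF4G liver mets, and 0.0499% of FOXA1 liver mets loops in its span range were as high. Another such start at -1039.3 kb was joined in HNF4G tumor only, with 4.09.

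One far loop had the top value. It joined the hub to chr15:77878808-77890878, an anchor of 12.1 kb with no gene at -965 kb, between the start of Myh9 and the hub. This loop was chosen after its values were seen. Its value was 20 in FOXA1 liver mets and 4.04 in HNF4G tumor, and it was in neither of the other lists. Only 0.165% of FOXA1 liver mets loops between 500 and 1000 kb were as high, and 11 of the 28 FOXA1 liver mets loops of 500 kb or more with a value of 20 involved an anchor of 10 kb or more. At 500 kb or more, 18.8%, 15.4%, 20% and 16.7% of the loops of the hub had a value of 2 or more, and loops of wide anchors had 17.6%, 12.9%, 12.1% and 13.7%.

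Most other far values sat at a tie. For FOXA1 the value 1.87 in liver mets and 1.91 in tumor, and 1.99 in both HNF4G lists, was shared by long runs of loops, and 23, 21, 11 and 12 loops of the hub had exactly it. Of the loops of the hub of 1 Mb or more, 18 of 19, 12 of 14, 8 of 10 and 6 of 7 did, so these loops cannot be ranked among themselves.

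Loops found in 1 list only reached genes on both sides. In FOXA1 liver mets the highest joined the hub to an intron of Cacng2, a calcium channel subunit gene, with 3.79, and to an anchor over Maff and Tmem184b at 509 kb and one in an intron of Tmem184b at 540 kb, with 3.6 each. In FOXA1 tumor they were the hub with Zfp251 with 4.15 at -1978.3 kb, the hub with an anchor with no gene at -994 kb with 3.92, and Lgals1 with Eif3l, a translation initiation factor subunit, with 2.52. In HNF4G liver mets all 3 were at the tied 1.99, at Rbfox2, A730060N03Rik and an intron of Josd1. In HNF4G tumor they were a start inside the Myh9 gene at -1039.3 kb with 4.09, an anchor with no gene at -944 kb with 4.04 and Zfp7 with 1.99. The longest loops were for FOXA1 with Tnrc6b at 1861.5 kb in liver mets and Zfp251 in tumor, and for HNF4G with Zfp647 at -1923.6 kb in liver mets and Zfp7 at -1972.3 kb in tumor.

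Among 62 genes listed as neighbors of the hub on chromosome 15, 45 had an anchor at a start, 3 of them members. Of the other 42, 39 were joined to the hub in at least 1 list. Of all 187 anchors in reach of the hub, with or without a gene start, 59.9% were. A gene could be counted through any of its anchors, so these shares are not on the same footing. The 39 genes were joined in all 4 lists for 12 genes, in 3 for 8, in 2 for 8 and in 1 for 11, counting any anchor within 2 kb of a start of the gene. Myh9 with 4 anchors and Foxred2 with 2 are among the 12, although no single anchor of either was joined in all 4 lists. The genes with no start joined were Ddx17, an RNA helicase gene, Sun2, a nuclear envelope gene, and Tab1, a kinase adaptor gene, although the hub had a loop to another anchor over exons of Sun2 at 874 kb in FOXA1 liver mets, with 1.87. Lgals1 was joined to 21 of the 42, in all 4 lists for Gga1, Pdxp and Nol12. Cyth4, an exchange factor gene for Arf GTPases, was joined to the hub in the FOXA1 lists only, with 4.78 in liver mets and 1.71 in tumor. Foxred2, an endoplasmic reticulum oxidoreductase gene, had a FOXA1 value of 3.92 in tumor and HNF4G values of 4.03 in liver mets and 1.99 in tumor at one of its starts. Pdgfb, a growth factor gene, was joined in both liver mets lists, with 1.87 for FOXA1 and 4.16 for HNF4G.

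Between liver mets and tumor, the loops of both anchors numbered 94 and 89 for FOXA1, a ratio of 1.06 (0.782 to 1.43), and 56 and 63 for HNF4G, a ratio of 0.889 (0.609 to 1.29). For the hub the ratios were 1.09 (0.768 to 1.56) and 0.909 (0.577 to 1.43), and for Lgals1 they were 0.962 (0.533 to 1.73) and 0.85 (0.418 to 1.71). Every interval includes 1, so no difference between the contexts was detectable at these counts. When each list was shortened to its 76323 highest values, the length of the shortest, the FOXA1 ratio for both anchors turned to 0.881 (0.636 to 1.22). Whole lists had ratios of 1.21 for FOXA1 and 1.02 for HNF4G. Relative to these, the hub was at 0.907 and 0.888 and Lgals1 at 0.797 and 0.831. None of these passed 1.5-fold, which 9.99% of anchors with at least 20 FOXA1 loops passed toward liver mets and 8.68% toward tumor, and 7.54% and 14.6% of those with at least 20 HNF4G loops.

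The relatives of the member genes lie on other chromosomes and were less connected in most cases. Among galectin genes, Lgals4 had 43, 33, 23 and 31 loops over its 3 anchors, Lgals3 had 13, 10, 5 and 7, Lgals12 had 11, 11, 10 and 7, and Lgals9 had 9, 7, 9 and 13. Lgalsl had 9, 5, 5 and 10, Lgals8 had 0, 1, 1 and 0, and Lgals7 had no anchor at its start. The Lgals2 anchor thus had more loops than any of these galectins in every list, and the Lgals1 anchor had more than all but Lgals4, whose loops are a sum. Among Borg genes, Cdc42ep2 had 66, 53, 40 and 35 loops over 2 anchors, close to the hub, whereas Cdc42ep3, Cdc42ep4 and Cdc42ep5 ranged from 2 to 15. Cdc42 itself had 12, 6, 7 and 4. Among septin genes, on whose products Borg proteins act, Sept9 had the most, 143, 121, 107 and 120 over 5 anchors.

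**Figure D5:**
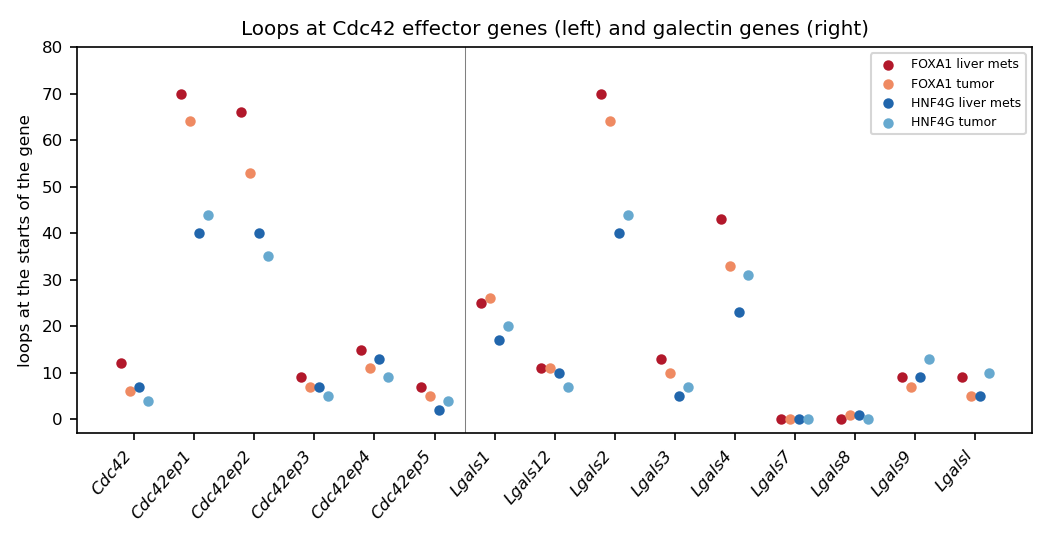
Loops at the starts of galectin genes and of Cdc42 and its Borg effector genes (1 point per list, vertical axis in loops summed over the anchors of a gene) in the 4 lists. Lgals2 and Cdc42ep1 share 1 anchor and so have the same points at 70, 64, 40 and 44, and Cdc42ep2 comes next among the effectors.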

How the data were processed

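FOXA1 and HNF4G Hi-ChIP in 2 KPC cell lines gave 4 loop lists, 1 per group of 2 replicates. Reads had been mapped by the authors to mm10 with HiC-Pro 3.1.0 (DpnII, defaults), and loops came from hichipper. The joining of replicates, the origin of the anchors and any limit on paired reads are not given in the sources used here. Loops had been deposited with an unnamed value, which was read as a −log10 of an adjusted p only because of its ties and its limit of 20. The authors' display score follows from the whole part of that value and was not used further. Scripts (Python 3.11.15, pandas 2.3.3, scipy 1.17.1) read all lists, matched loops by identical anchors and assigned genes from GENCODE M21 on GRCm38. Spans were distances between anchor midpoints, from 5 to 2000 kb. Shares at the same span mix were weighted to the span ranges of the loops compared. The number of loops per list sets the precision, since depth is unknown. As a group had 1 list, groups were compared by counts, shares and intervals only. The counting was tested on simulated data. Alternatives were other start definitions, minimum values, span limits and wider anchors.

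Named were the members, their partners in all 4 lists (the 10 with the highest lowest value), the 3 highest loops found in 1 list only, the longest loop per list, partners at genes of 4 lists (neighbors, galectins, Cdc42 effectors, septins) and the 5 promoter anchors most like the hub. The members and lists were chosen with earlier results of these data known.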

Additional observations from a re-analysis of the deposited data

Results flagged for a closer look

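The loops of both anchors were more numerous in liver mets than in tumor for FOXA1, with a ratio of 1.06 (0.782 to 1.43), and less numerous for HNF4G, with a ratio of 0.889 (0.609 to 1.29). The directions were opposite between the factors, and the difference between them was not tested, since each group has 1 list. Both intervals include 1. With each list shortened to its 76323 highest values, the FOXA1 ratio turned to 0.881 and the HNF4G ratio was 0.889, so both then lay under 1. Relative to the ratio of the whole lists, the ratios before this shortening were 0.876 and 0.869.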

How the results depend on the processing

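No paired analysis was possible because each group had 1 list over both replicates with no value per replicate, and for the same reason replicates could not be left out. Of 100 values recomputed under 12 other settings, 78 stayed within the counting interval of the reported value and 22 moved outside it. Every start of the members lay inside its anchor and more than 5 kb from any other anchor. The settings of the start definition therefore could not change loop numbers, ratios, long shares or list membership. Many of the 78 stayed for that reason, and the loop numbers at the member starts have no interval. The ratios of liver mets to tumor also stayed within the counting interval under the other settings tried for them. The FOXA1 ratio nevertheless turned from 1.06 to 0.881 when each list was shortened to its 76323 highest values, the length of the shortest. The promoter-partner share moved to 46.8% in FOXA1 liver mets and 52.8% in FOXA1 tumor with the start inside the anchor, and to 73.4% and 79.8% (FOXA1, liver mets and tumor) and 80.4% and 77.8% (HNF4G) with the start within 5 kb. With the 5′ end of the gene only it was 43.6% and 53.9% (FOXA1, liver mets and tumor) and 50.8% (HNF4G tumor). These shifts follow from how many anchors each definition counts as promoters. At a value of 2 or more it was 50% for FOXA1 in liver mets, and 80% in liver mets and 53.8% in tumor for HNF4G, the long share in FOXA1 tumor was 65.0% and the share in all 4 lists was 6.98%, over fewer loops. With long loops counted from 50 kb the long shares were 86.2%, 88.8%, 78.6% and 79.4%, and from 200 kb they were 58.5% and 57.3% (FOXA1, liver mets and tumor) and 42.9% (HNF4G liver mets). With anchors widened by 5 kb, which lets neighboring anchors count as shared, the share in all 4 lists was 36.2%. The number of loops, as low as 17 for Lgals1, limits what could be detected.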

Other observations

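Promoter anchors on other chromosomes with loop numbers most like those of the hub were all wide. On chromosome 19, 2 anchors at Neat1, a long noncoding RNA gene, had 74, 57, 42 and 44 loops over 11.9 kb and 78, 58, 39 and 50 over 12.2 kb (FOXA1 in liver mets and tumor, then HNF4G in both). On chromosome 11, Lasp1, which encodes an actin-binding LIM protein, had 70, 53, 41 and 51 over 16.5 kb, and C1qtnf1, a secreted C1q family gene, had 67, 55, 37 and 52 over 17.4 kb. On chromosome 17, the anchor at Hmga1, which encodes an architectural chromatin protein, had 59, 50, 45 and 45 over 14.5 kb. Likeness was the Euclidean distance of the 4 values of log2(loops + 1), which ran from 0.195 to 0.458 for these 5.

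The anchor at the start of Elfn2, 131 kb from the hub, had 15, 13, 1 and 13 loops in the same order, and its only HNF4G liver mets loop ended at the hub with a value of 1.54. The hub loops of Elfn2 in FOXA1 liver mets and FOXA1 tumor had 3.19 and 1.3, and it was not joined to the hub in HNF4G tumor. This anchor was chosen after its values were seen.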
